A study of Mus musculus with 6 samples.

Results

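Genes of glycolysis and glucose uptake were followed in the esophageal epithelium of mouse embryos at stage E12.5, in p63KO embryos and their littermate controls. The 36 genes were a list fixed by name: glucose transporters, the enzymes that turn glucose into pyruvate and lactate, the enzymes that control them, the entry into the pentose phosphate pathway and the factor Hif1a. All 36 had a row among the 23284 gene symbols of the count table. Pyruvate kinase appears in that table under its older symbol Pkm2. The p63KO group held 3 libraries from embryos homozygous for the Trp63-CreERT2 allele, which the labels equate with loss of Trp63, the gene of the p63 transcription factor of stratified epithelia. The control group held 3 libraries from littermates, titled WT, with no further word on their Trp63 alleles. No other allele and no agent is named for either group. The labels do not say how many embryos went into a library, so the p-values measure the spread between these libraries, which may be technical in part.

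Glycolysis splits glucose into pyruvate in the cytosol. Glucose enters through transporters of the Slc2a family, a hexokinase traps it as a phosphate, and phosphofructokinase commits it to breakdown. Pyruvate is then either reduced to lactate and exported or passed to the pyruvate dehydrogenase complex of the mitochondrion, and the pentose phosphate pathway branches off after the hexokinase step to make NADPH and ribose. Several steps have isoenzymes, encoded by separate genes, that differ between tissues, and growing embryonic tissues are known for high glycolysis.

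Total counts were 13335328 to 16506401 in p63KO and 16948971 to 20093838 in control. Levels are given as CPM, a library's counts set to 1 common total and scaled between libraries by the TMM method. Trp63 was 76.7, 62.2 and 75.4 CPM in p63KO, against 583.9, 674.1 and 550.6 CPM in control. Of 8 markers of epithelium, Krt8, Krt18 and Krt19 rose, Krt5 and Cdh1 fell, and Epcam, Sox2 and Foxa1 did not pass. The basal keratin Krt5 was 2.01 to 10.9 CPM in p63KO and 199.8 to 298.2 CPM in control, and Epcam was 943.9 to 953.2 CPM in p63KO and 846.3 to 858.7 CPM in control. No endothelial marker passed 3 CPM in any library. The 12 neuroendocrine markers summed to 496.3 to 626.6 CPM in p63KO and 6.48 to 23.4 CPM in control, and all 12 rose. The 10 mesenchyme markers summed to 1257 to 1654 CPM in p63KO and 450.6 to 532.2 CPM in control, with 2 higher and 4 lower. Dcn carried that sum, and the other 9 summed to 141.5 to 311.8 CPM in p63KO and 239.5 to 390.9 CPM in control. In bulk samples, fewer cells of a type and less RNA per cell cannot be told apart.

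Most of the list moved little. Of the 36 genes, 35 passed the filter on low counts, and in the edgeR quasi-likelihood test 10 were higher in p63KO, 2 were lower and 23 did not pass an adjusted p of 0.05. The called share was 34.3%, where 29.6% of all 13849 tested genes were called. Higher calls were 15.3% and lower calls 14.3% of all tested genes. The median log2 fold change of the 35 genes was 0.06 and the median size of the change 0.16, against -0.01 and 0.20 over all tested genes. Only Slc2a3 and Eno2 changed by 1 or more on the log2 scale (5.71% of the list, against 13% of all tested genes). The groups did not overlap for 17 of the 35 genes, a state found for 44.1% of all tested genes. Leaving out Slc2a3, which was raised in 1 control library and is described apart, 10 of 34 genes were higher and 1 was lower.

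**Figure D1:**
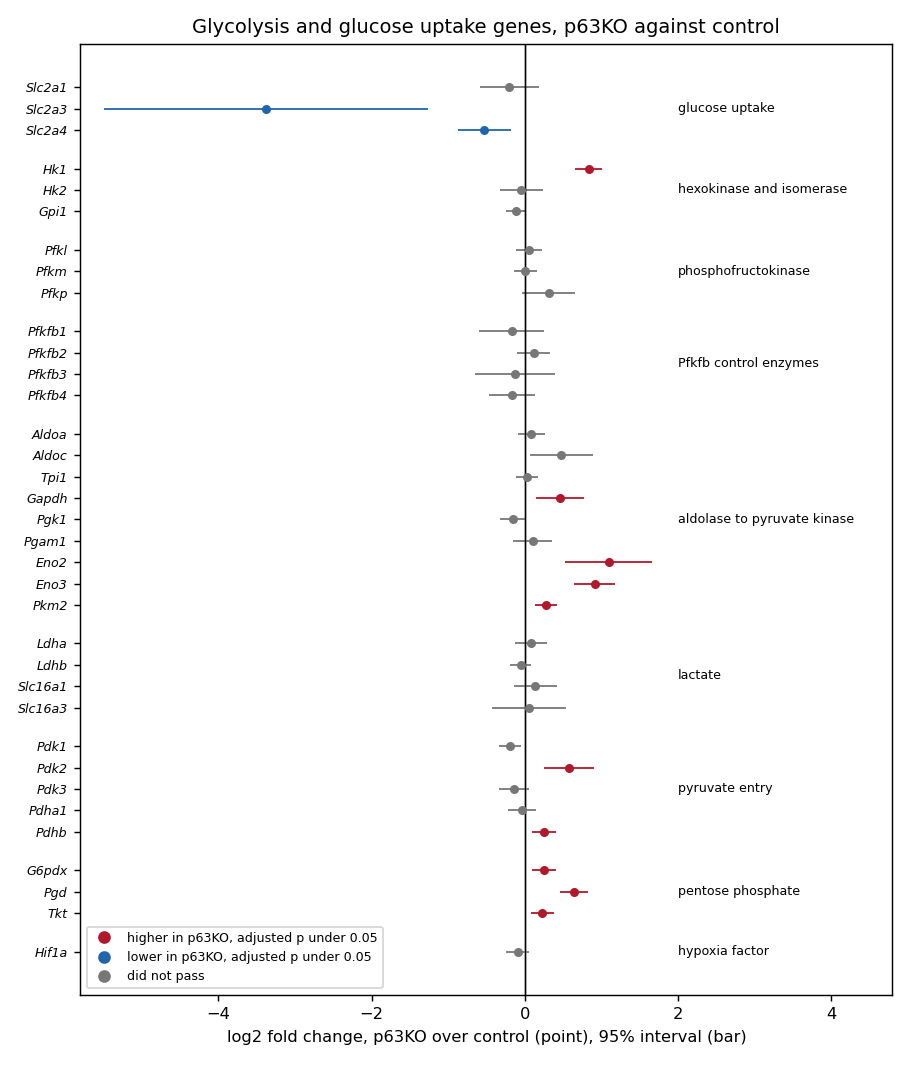
Log2 fold change of p63KO over control (x axis) for the 35 tested genes, ordered by step of the pathway, as the edgeR estimate with its 95% interval. Red points were higher, blue points lower and grey points did not pass. Most points lie near 0, Eno2 (1.09), Eno3 (0.91), Hk1 (0.83) and Pgd (0.64) stand to the right, and Slc2a3 (-3.38) stands far to the left with a wide interval.

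The calls differed in how much they rested on single libraries. Hk1, Eno2, Eno3, Pkm2 and Pgd stayed higher in each of the 6 fits with 1 library left out. The number of higher members was 5 without p63KO replicate 1, 6 without control replicate 2, 7 without p63KO replicate 3 or control replicate 3, and 9 without p63KO replicate 2 or control replicate 1. The number of lower members was 0 without p63KO replicate 2 or 3.

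The same 5 genes had the highest counted levels of the list in both groups, and of these only pyruvate kinase passed the test. Gapdh, Eno1 and Pgk1 share most of their sequence with other genes, so their place in this order could not be read. By the window matches described below, 51.7% of the Pkm2 windows and 26.2% of the Ldha windows also matched other genes. For Tpi1 and Aldoa these shares were 15.2% and 4.83%. The order is therefore that of the counted rows, and the effect of shared sequence on the places of Pkm2 and Ldha was not tested. Levels of different genes are compared as CPM per kilobase of exon. Pkm2, which makes pyruvate, led the list at 751.6 ± 26.8 CPM per kilobase in p63KO and 619.4 ± 36.7 CPM per kilobase in control (SD, n = 3 each). Ldha, which reduces pyruvate to lactate, followed at 491.2 ± 32.8 in p63KO and 464.7 ± 55.4 in control on the same scale. Tpi1, Aldoa and Pfkl came next, and these 5 held the same order in both groups. That order from Pkm2 to Pfkl held in each of the 6 libraries.

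Glucose transporters are described before the enzymes. Slc2a1, the main transporter of embryonic epithelia, was 251.0, 260.6 and 200.2 CPM in p63KO, against 254.4, 351.9 and 212.0 CPM in control. The groups overlapped, control replicate 2 was the highest library, and the gene did not pass (log2 fold change -0.20, SE 0.17, edgeR adjusted p = 0.43). Its 95% interval ran from 0.67-fold to 1.14-fold. Slc2a4, the insulin-responsive transporter of muscle and fat, was 8.50, 7.48 and 6.61 CPM in p63KO, against 11.4, 10.4 and 10.8 CPM in control. All 3 p63KO libraries lay below all 3 control libraries, and the gene fell by 0.53 on the log2 scale (SE 0.15, edgeR adjusted p = 0.030). The Slc2a4 call was lost in 5 of the 6 fits with 1 library left out, all but the fit without p63KO replicate 1, with adjusted p between 0.051 and 0.099. The 8 muscle markers summed to 29.0 to 54.1 CPM in p63KO and 72.9 to 165.6 CPM in control. Of these markers 3 of 5 tested fell, and none rose. Their part in the lower Slc2a4 was not tested.

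Slc2a3, the high-affinity transporter known from neurons, blastocyst and placenta, was raised in 1 control library. It was 4.01, 6.44 and 5.50 CPM in p63KO, against 16.1, 10.2 and 139.6 CPM in control. Control replicate 3 stood alone, while the other 2 control libraries still lay above all p63KO libraries. With all libraries the log2 fold change was -3.38 (SE 0.94, edgeR adjusted p = 0.024). Without control replicate 3 it was -1.31 (edgeR adjusted p = 0.0036). Leaving out p63KO replicate 1, 2 or 3 lost the call (adjusted p = 0.099, 0.0655 and 0.084). With limma-voom it was -2.38 (adjusted p = 0.23). Among other genes of sugar metabolism, Pklr and Fbp2 were also high in that library, and both were chosen after their values were seen. Not all such genes were, and Slc2a12, Slc2a9 and Slc16a7 had their lowest control level there. Pklr, the pyruvate kinase of liver and red cells, was 0.28 to 0.83 CPM in p63KO, and 0.05, 0.41 and 4.65 CPM in control. Fbp2, a fructose bisphosphatase of muscle, was 0.14 to 0.35 CPM in p63KO, and 0.59, 0.15 and 4.12 CPM in control. Pklr and Fbp2 did not pass the filter on low counts and were not tested. Control replicate 3 was the highest library for each, with 79 and 70 counts, which were most of their counts. The 8 blood markers summed to 13.2, 11.9 and 25.5 CPM in p63KO, and 3.71, 7.36 and 39.7 CPM in control, and their part in these values was not tested.

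**Figure D2:**
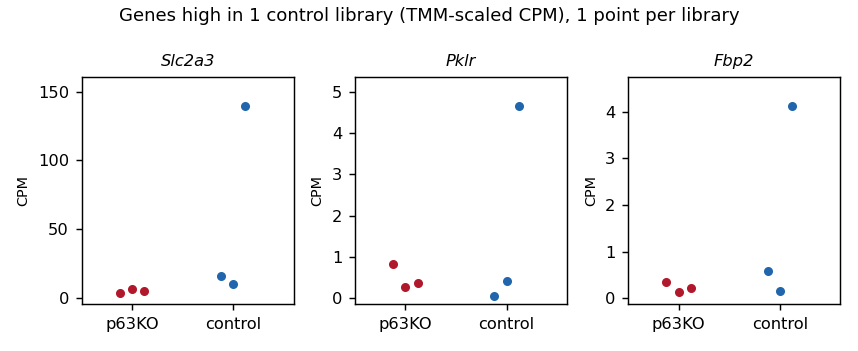
Level in CPM (y axis) of Slc2a3, Pklr and Fbp2 in each library, 1 point per library, p63KO left and control right. The p63KO points reach at most 6.44, 0.83 and 0.35 CPM, and in every panel the highest point is control replicate 3, at 139.6, 4.65 and 4.12 CPM. Pklr and Fbp2 were chosen after their values were seen.

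At the hexokinase step, Hk1 rose and Hk2 did not pass. Hk1, the broadly expressed mitochondrial hexokinase that predominates in brain, was 96.8, 88.1 and 89.7 CPM in p63KO, against 56.7, 49.2 and 48.2 CPM in control. The groups were far apart, with a fold change of 1.78 (95% interval 1.57 to 2.02, edgeR adjusted p = 5.7e-05). Over all alternatives its log2 fold change lay between 0.79 and 0.91. Of its windows 1.44% matched the antisense gene Hk1os. Hk2, the insulin-regulated and growth-associated hexokinase, was 133.3, 143.5 and 124.3 CPM in p63KO, against 121.1, 168.8 and 123.5 CPM in control. These values overlapped, with a log2 fold change of -0.04 (SE 0.12, edgeR adjusted p = 0.83). Hk2 made up 54.3%, 58.5% and 54.5% of the summed Hk1 and Hk2 level per kilobase in p63KO, against 64.9%, 74.8% and 68.9% in control. The groups did not overlap, and the exact two-sided permutation test gave p = 0.10, the smallest that 3 against 3 libraries allow. Gpi1, the isomerase that follows, was 251.4 to 261.4 CPM in p63KO and 267.4 to 288.3 CPM in control, and did not pass (edgeR adjusted p = 0.15).

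RefSeq places the annotated starts of Hk1 at separate positions, and the count table does not tell transcripts apart. The window around its downstream start, 250 bases before to 50 after, is shown because Hk1 had the lowest p of the list. It lies at chr10:62340372-62340671 (GRCm38.p6, minus strand). Capitals mark the core letters of the hypoxia response element (ACGTG or GCGTG, either strand) and of the antioxidant response element (TGACNNNGC, either strand).
Hk1: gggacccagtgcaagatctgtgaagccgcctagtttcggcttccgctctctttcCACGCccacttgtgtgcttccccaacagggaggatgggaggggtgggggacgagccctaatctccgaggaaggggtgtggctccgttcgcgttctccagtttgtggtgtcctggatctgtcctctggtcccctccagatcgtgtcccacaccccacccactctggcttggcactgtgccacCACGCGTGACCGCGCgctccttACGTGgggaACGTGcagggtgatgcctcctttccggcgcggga
This window holds 5 matches to the hypoxia core and 1 to the antioxidant core, some of which overlap. The window of the upstream start, chr10:62379859-62380158, holds none of either.

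Promoter windows were at hand for 34 of the 36 genes, in 54 windows. A hypoxia core stood in 75.9% of these windows, against 49.3% of 21263 windows of protein-coding genes and 43.8% of all 32851 windows. An antioxidant core stood in 11.1%, against 13% of windows of protein-coding genes and 12.4% of all windows. The member windows held a median of 19 CG dinucleotides, against 13 in windows of protein-coding genes, and each hypoxia core contains CG. A match of letters is a description of the window and not a bound site.

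Phosphofructokinase, the committing step, showed no called change. Pfkl, the liver-type subunit and the most abundant of the 3, was 542.6, 534.5 and 474.4 CPM in p63KO, against 467.8, 521.5 and 503.8 CPM in control (log2 fold change 0.06, SE 0.07, edgeR adjusted p = 0.63). Pfkl held 84.5% to 86.3% of the summed subunit level per kilobase in p63KO and 84.2% to 86.2% in control. Pfkm, the muscle type, had a log2 fold change of 0.01 with a 95% interval of 0.91-fold to 1.11-fold. Pfkp, the platelet type, was 13.1 to 16.8 CPM in p63KO and 10.1 to 12.6 CPM in control without passing (log2 fold change 0.31, edgeR adjusted p = 0.16). Its share was 1.88% to 2.29% in p63KO and 1.58% to 1.86% in control, without overlap (exact two-sided permutation p = 0.10, the smallest possible here). The Pfkfb enzymes set the level of the sugar bisphosphate that activates phosphofructokinase. None of the 4 passed, and their log2 fold changes ran from -0.17 to 0.12. Of the 3 subunits and 4 Pfkfb genes, 0 had an unadjusted edgeR p under 0.05 and 0 were called by DESeq2 or limma-voom. Pfkfb3, the strongly kinase-active form, was 80.4, 89.1 and 64.2 CPM in p63KO, against 75.6, 120.2 and 58.5 CPM in control, where control replicate 2 was again the highest.

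**Figure D3:**
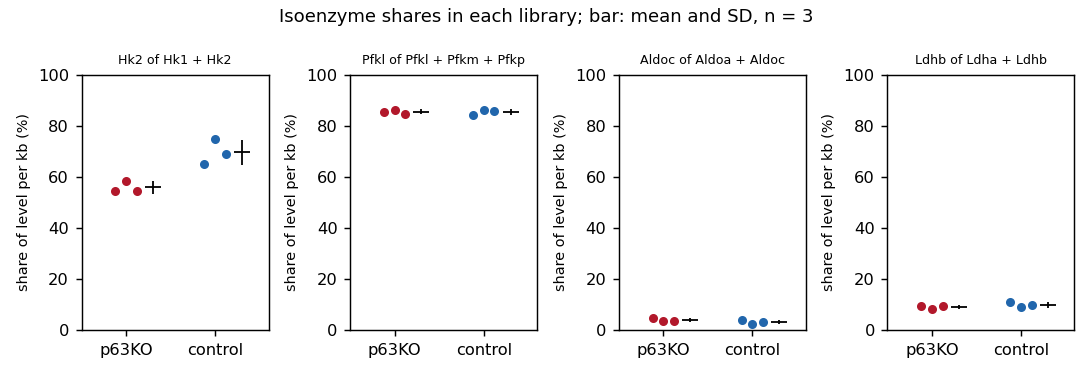
Share of 1 isoenzyme gene in the summed level per kilobase of its family (y axis, percent) in each library, with mean and SD of 3. The share of Hk2 was lower in every p63KO library (54.3% to 58.5%) than in every control library (64.9% to 74.8%), while the shares of Pfkl, Aldoc and Ldhb overlapped between the groups.

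Of the 10 genes between aldolase and pyruvate kinase, 4 rose and 5 did not pass, and Eno1 could not be tested. Over all tested genes 15.3% were called higher. Aldoa, the ubiquitous aldolase, was 605.1, 565.2 and 540.2 CPM in p63KO, against 495.3, 583.9 and 534.0 CPM in control (edgeR adjusted p = 0.46). Tpi1, the triose isomerase, was 566.5, 561.9 and 553.4 CPM in p63KO, against 513.0, 575.2 and 556.1 CPM in control, with a 95% interval of 0.93-fold to 1.13-fold. These 2 enzymes overlapped between groups. Aldoc, the aldolase of brain, was 34.4, 22.8 and 23.8 CPM in p63KO, against 23.1, 16.6 and 18.7 CPM in control. p63KO replicate 1 was highest, p63KO replicate 2 lay below control replicate 1, and the log2 fold change of 0.48 (SE 0.18) missed the threshold (edgeR adjusted p = 0.082). Aldoc passed with DESeq2 (adjusted p = 0.041), with the replicate block (0.0077) and without control replicate 1 (0.0491), out of alternatives between 0.0077 and 0.28.

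The less abundant enolases rose. Eno2, the neuron-type enolase known as neuron-specific enolase and used as a neuroendocrine marker, was 8.97, 7.62 and 7.50 CPM in p63KO, against 3.65, 5.01 and 2.59 CPM in control. The groups did not overlap, and the fold change was 2.14 (95% interval 1.44 to 3.16, edgeR adjusted p = 0.0096). Eno3, the muscle-type enolase, was 21.7, 19.7 and 23.0 CPM in p63KO, against 12.4, 11.1 and 10.8 CPM in control. It rose 1.88-fold (95% interval 1.56 to 2.27, edgeR adjusted p = 0.00039). The part of the muscle and neuroendocrine markers given above in the values of Eno3 and Eno2 was not tested.

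The main enolase could not be read from its own row. Eno1 had 5, 1 and 3 counts in p63KO and 3, 5 and 3 counts in control. Of the windows of 100 bases along its transcript, 85.0% also matched another annotated gene within 2 mismatches, most often Eno1b, a near-identical enolase gene listed in the table under its older symbol Gm5506. The Gm5506 row was 204.9, 259.5 and 208.0 CPM in p63KO, against 146.4, 209.7 and 147.6 CPM in control. It overlapped between groups and did not pass (log2 fold change 0.42, SE 0.15, edgeR adjusted p = 0.061). The alternatives for it gave adjusted p values that passed with upper-quartile factors (0.042), DESeq2 (0.00696), the replicate block (0.00098) and without control replicate 2 (0.0033). Which of the enolase genes gave rise to these reads cannot be told from the table. With the Gm5506 row added to Eno1, Eno2 was 1.77% to 2.54% of the enolase level per kilobase in p63KO and 1.07% to 1.50% in control, an added calculation chosen after the data had been seen.

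Gapdh, the dehydrogenase of the triose phosphate, has the same limit. It was 28.9, 29.7 and 22.0 CPM in p63KO, against 22.1, 18.2 and 18.4 CPM in control. p63KO replicate 3 lay below control replicate 1, so the groups overlapped, and the log2 fold change was 0.46 (SE 0.14, edgeR adjusted p = 0.036). The call was lost without p63KO replicate 1 or 2 or control replicate 2 or 3 (adjusted p = 0.12, 0.10, 0.10 and 0.083). Of its windows 79.7% matched another gene, and 79 annotated pseudogenes were among the matches, and what part of its RNA the row covers was not tested. Pgk1, which yields the first ATP of the pathway, had 66.5% shared windows. It was 51.3 to 52.2 CPM in p63KO and 54.6 to 63.4 CPM in control and did not pass (edgeR adjusted p = 0.16). Pgam1, the mutase, also did not pass (log2 fold change 0.10, SE 0.11). Hk2, Pfkl, Pgd, Tkt, Eno2, Eno3, Pdk2, Slc2a3 and Slc2a4 had no shared window.

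Pkm2, the last enzyme of glycolysis, rose by a small amount that exceeded the spread. It was 1991.9, 1995.1 and 1873.0 CPM in p63KO, against 1529.7, 1715.3 and 1584.5 CPM in control. All p63KO libraries were above all control libraries, and the fold change was 1.21 (95% interval 1.10 to 1.34, edgeR adjusted p = 0.010). Of its windows 51.7% matched other genes, mostly pseudogenes, and the table does not separate the spliced forms of the gene.

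**Figure D4:**
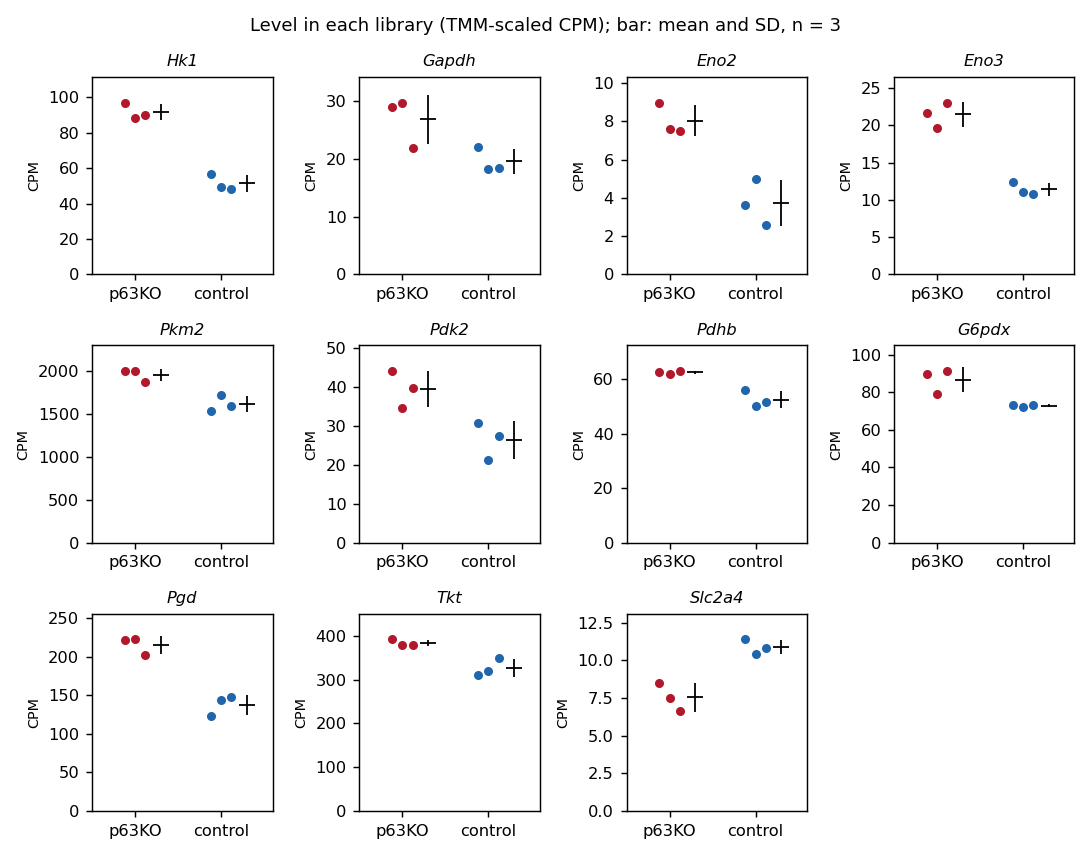
Level in CPM (y axis) of the 11 called genes other than Slc2a3 in each library, with mean and SD of 3. The p63KO points lie above the control points for Hk1, Eno2, Eno3, Pkm2, Pdk2, Pdhb, G6pdx, Pgd and Tkt and below them for Slc2a4, and they overlap for Gapdh.

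None of the 4 genes of lactate handling passed the test, 0 had an unadjusted edgeR p under 0.05, and 0 were called by DESeq2 or limma-voom. Ldha was 928.8, 993.9 and 869.6 CPM in p63KO, against 774.0, 983.7 and 884.0 CPM in control, which overlapped. Its fold change was 1.06 with a 95% interval of 0.91 to 1.22 (edgeR adjusted p = 0.57). Ldhb, the heart-type subunit, held 8.25% to 9.53% of the summed Ldha and Ldhb level per kilobase in p63KO and 8.78% to 11.1% in control. Of the Ldhb windows 49.6% matched the pseudogene Gm5514, and 26.2% of the Ldha windows matched pseudogenes. The effect of this on the share was not tested. The monocarboxylate carriers Slc16a1 and Slc16a3, which move lactate across the membrane, had log2 fold changes of 0.14 (SE 0.12) and 0.06 (SE 0.21). Slc16a3 was 108.8, 98.3 and 76.0 CPM in p63KO, against 82.1, 123.8 and 65.8 CPM in control, so both extremes were control libraries.

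Slc2a1, Slc16a3 and Pfkfb3 shared a wide spread among the controls. In all of these genes control replicate 2 was highest of all 6 libraries and control replicate 3 was below control replicate 1. Without control replicate 2, their log2 fold changes were 0.02, 0.35 and 0.22, so the sign of Slc2a1 and Pfkfb3 turned, with none passing.

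At the entry of pyruvate into the mitochondrion, 2 of 5 genes rose, where 15.3% of all tested genes were called higher. The kinases Pdk1, Pdk2 and Pdk3 switch off pyruvate dehydrogenase by phosphorylation. Pdk2, the broadly expressed form, was 44.1, 34.7 and 39.8 CPM in p63KO, against 30.8, 21.2 and 27.4 CPM in control. It rose 1.50-fold (95% interval 1.19 to 1.88, edgeR adjusted p = 0.015), a call lost without p63KO replicate 1 (adjusted p = 0.062). Pdk1, the hypoxia-responsive form, was 164.3, 167.3 and 157.7 CPM in p63KO, against 188.4, 196.1 and 173.6 CPM in control. All p63KO libraries lay lower, and the log2 fold change of -0.19 (SE 0.06) just missed the threshold (edgeR adjusted p = 0.053). Over the alternatives its adjusted p lay between 0.018 and 0.17. Pdk3 did not pass (log2 fold change -0.14). Of the enzyme itself, Pdhb was 62.7, 61.9 and 63.05 CPM in p63KO, against 56.0, 50.1 and 51.6 CPM in control. It rose 1.19-fold (edgeR adjusted p = 0.021), and the call was lost without p63KO replicate 1 or 3 or control replicate 2 or 3 (adjusted p = 0.051, 0.062, 0.082 and 0.063). Of the Pdhb windows 44.4% matched the pseudogene Gm6123. Pdha1, its partner subunit, was 93.1 to 106.2 CPM in p63KO and 97.8 to 113.6 CPM in control and did not pass.

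All 3 pentose phosphate members rose, where 15.3% of all tested genes were called higher. Pgd, the phosphogluconate dehydrogenase that yields NADPH, was 222.1, 222.4 and 201.9 CPM in p63KO, against 123.0, 143.3 and 147.3 CPM in control. It rose 1.56-fold (95% interval 1.38 to 1.77, edgeR adjusted p = 0.00028), with log2 fold changes between 0.57 and 0.69 over all alternatives. Each p63KO library lay well above each control library. G6pdx, the glucose phosphate dehydrogenase that opens the pathway, was 89.7, 79.2 and 91.3 CPM in p63KO, against 73.5, 71.9 and 73.0 CPM in control. It rose 1.19-fold (95% interval 1.07 to 1.33, edgeR adjusted p = 0.025). The 3 control libraries were close together, and p63KO replicate 2 lay nearest to them. Tkt, the transketolase that links the pathway back to glycolysis, was 392.0, 378.9 and 379.4 CPM in p63KO, against 309.5, 319.6 and 350.5 CPM in control. It rose 1.17-fold (95% interval 1.06 to 1.30, edgeR adjusted p = 0.024).

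The groups did not overlap for these 3 genes, a state found for 44.1% of all tested genes. G6pdx and Tkt were near the threshold. The G6pdx call was lost in 5 of the 6 fits with 1 library left out (adjusted p between 0.055 and 0.089), all but the fit without p63KO replicate 2. The Tkt call was lost in 4 fits, those without p63KO replicate 1 or 3 or control replicate 1 or 2 (adjusted p between 0.062 and 0.089). G6pdx is X-linked, shared 6.64% of its windows with other genes, and p63KO replicate 2, its lowest p63KO library, had 1.59 CPM of Xist against 514.4 to 1456 CPM elsewhere. Ddx3y, which is Y-linked, was 33.8 to 104.9 CPM in p63KO and 53.7 to 75.4 CPM in control, so both sex-linked genes were high in 5 libraries. The part of these differences in the G6pdx level was not tested.

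Promoter windows of these genes are shown because all 3 were called higher. Each runs from 250 bases before to 50 after a RefSeq start on GRCm38.p6. Whether the 3 genes changed jointly was not tested. They lie at chr4:149166656-149166955 (minus strand) for Pgd, chrX:74428831-74429130 (minus strand) for G6pdx and chr14:30548881-30549180 (plus strand) for Tkt. Capitals mark the same core letters as above.
Pgd: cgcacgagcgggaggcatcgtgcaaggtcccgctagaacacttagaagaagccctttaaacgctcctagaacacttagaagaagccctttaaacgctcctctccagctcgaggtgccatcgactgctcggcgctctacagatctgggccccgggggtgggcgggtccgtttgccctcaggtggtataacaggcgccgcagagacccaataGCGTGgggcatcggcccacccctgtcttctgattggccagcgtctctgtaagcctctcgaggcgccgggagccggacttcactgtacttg
G6pdx: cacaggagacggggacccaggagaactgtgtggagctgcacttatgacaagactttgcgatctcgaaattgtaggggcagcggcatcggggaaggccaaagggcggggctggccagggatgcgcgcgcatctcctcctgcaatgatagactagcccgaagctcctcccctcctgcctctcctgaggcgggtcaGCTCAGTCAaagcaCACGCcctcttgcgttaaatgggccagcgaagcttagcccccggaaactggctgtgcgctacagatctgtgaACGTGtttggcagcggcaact
Tkt: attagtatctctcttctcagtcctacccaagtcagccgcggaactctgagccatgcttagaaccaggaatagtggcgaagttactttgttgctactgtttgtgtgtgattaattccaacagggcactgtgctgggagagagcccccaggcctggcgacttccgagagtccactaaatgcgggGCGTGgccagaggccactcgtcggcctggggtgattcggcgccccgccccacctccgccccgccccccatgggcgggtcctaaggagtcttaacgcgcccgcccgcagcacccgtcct
The G6pdx window holds 1 antioxidant core and 2 hypoxia cores. The Pgd and Tkt windows hold 1 hypoxia core each and no antioxidant core, while the window of a further Pgd start, chr4:149166033-149166332, holds 1 antioxidant core.

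Hif1a, the oxygen-regulated factor that drives many glycolytic genes, did not change past the test. It was 228.7, 253.4 and 257.3 CPM in p63KO, against 258.7, 275.3 and 252.9 CPM in control. The groups overlapped, with a log2 fold change of -0.09 (SE 0.07, edgeR adjusted p = 0.36) and a 95% interval of 0.85-fold to 1.04-fold. Its activity is set mainly at the protein level, which was not measured.

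Genes that act on Hif1a were measured beside it. Egln1, the oxygen sensor that marks Hif1a for breakdown, was 127.2, 130.1 and 116.3 CPM in p63KO, against 165.1, 185.2 and 141.6 CPM in control (log2 fold change -0.40, SE 0.10, edgeR adjusted p = 0.013, and 0.061 without p63KO replicate 3). Vhl, the part of a ubiquitin ligase that binds the marked Hif1a, was 52.3, 60.5 and 56.4 CPM in p63KO, against 43.2, 46.6 and 45.0 CPM in control (log2 fold change 0.33, SE 0.08, edgeR adjusted p = 0.010). Hif1an, which blocks its activation domain, was 158.9, 174.9 and 168.6 CPM in p63KO, against 194.6, 191.1 and 189.3 CPM in control. It fell by 0.20 on the log2 scale (SE 0.06, edgeR adjusted p = 0.033), a call lost in each of the 6 fits with 1 library left out (adjusted p between 0.057 and 0.087). The groups did not overlap for these 3 genes and for Arnt2, 4 of the 9 regulators. That state was found for 44.1% of all tested genes. The other 6 of 9 regulators, Epas1 and Arnt among them, did not pass. The called share of 33.3% was near the 29.6% of all tested genes.

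Of 20 hypoxia target genes outside glycolysis, 18 were tested, 4 rose, 8 fell and 6 did not pass. The called share was 66.7% and the median log2 fold change -0.12, against 29.6% and -0.01 over all tested genes. The list was chosen with earlier results of these data known, so this share only describes the genes listed. Stc2, a secreted glycoprotein, was 21.2, 22.99 and 24.0 CPM in p63KO, against 8.54, 10.6 and 8.66 CPM in control (log2 fold change 1.29, SE 0.13). Mxi1, a Myc antagonist, was 137.0, 132.1 and 130.4 CPM in p63KO, against 83.7, 82.5 and 75.7 CPM in control (log2 fold change 0.72, SE 0.06). For both genes the groups did not overlap. Bnip3, a mitophagy receptor, rose by 0.46 on the log2 scale. Ankrd37 also rose (0.42), but its call was lost in each of the 6 fits with 1 library left out and in 2 other alternatives. Its log2 fold change stayed between 0.36 and 0.47.

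Those that fell included the largest changes of this list. Car12, a carbonic anhydrase, was 1.36, 0.83 and 0.74 CPM in p63KO, against 15.8, 6.84 and 14.0 CPM in control (log2 fold change -3.61, SE 0.38). Ndrg1, a differentiation-associated gene, was 7.79, 5.13 and 5.87 CPM in p63KO, against 34.4, 23.4 and 39.7 CPM in control (log2 fold change -2.37, SE 0.22). Each p63KO library lay far below each control library for both genes. Ddit4, an inhibitor of mTOR signalling, was 110.7, 124.9 and 78.4 CPM in p63KO, against 183.2, 282.5 and 173.6 CPM in control, and fell by 1.02 on the log2 scale (SE 0.21). Angptl4, an inhibitor of lipoprotein lipase, was 4.01, 3.60 and 2.896 CPM in p63KO, against 8.43, 7.66 and 7.12 CPM in control, and fell by 1.14 (SE 0.20). Lox, the collagen crosslinking enzyme, was 2.54, 2.42 and 0.82 CPM in p63KO, against 4.99, 3.58 and 5.95 CPM in control, and fell by 1.31 (SE 0.39), a call lost without p63KO replicate 2 or 3 or control replicate 1 or 3. Fam162a, P4ha2 and Plod2 also fell, and the Plod2 call was lost without p63KO replicate 1 or 3 (adjusted p = 0.066 and 0.072). Vegfa, the angiogenic factor, was 289.6, 263.4 and 248.9 CPM in p63KO, against 224.6, 246.3 and 170.6 CPM in control, and did not pass (edgeR adjusted p = 0.082).

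Other genes of sugar metabolism, 53 with a row in the table, had 38 tested, of which 4 rose, 5 fell and 29 did not pass. The called share was 23.7%, below the 29.6% of all tested genes. Those that rose were Bpgm, Pcx, Slc2a10 and Bsg. Bpgm, the bisphosphoglycerate mutase of red cells, was 96.8, 83.9 and 93.0 CPM in p63KO, against 55.7, 51.2 and 47.2 CPM in control (log2 fold change 0.83, SE 0.08). Beside it, of the blood markers summed above, 0 of 4 tested were called in edgeR and 0 had an unadjusted p under 0.05. Hbb-y, the most abundant of them, was 8.45 to 21.2 CPM in p63KO and 1.50 to 32.6 CPM in control, and the part of blood cells in the rise of Bpgm was not tested. Pcx, the pyruvate carboxylase, was 34.9, 23.6 and 28.9 CPM in p63KO, against 22.3, 22.6 and 20.02 CPM in control. It was called at an edgeR adjusted p of 0.0497, and the call was lost in 5 of the 6 fits with 1 library left out.

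Transporters outside the list moved in both directions. Slc2a12, a glucose transporter of muscle and fat, was 7.02, 5.26 and 6.09 CPM in p63KO, against 45.6, 45.1 and 43.6 CPM in control (log2 fold change -2.86, SE 0.12, edgeR adjusted p = 4.3e-07). Slc2a9, a urate and sugar transporter, was 0.89, 0.49 and 0.37 CPM in p63KO, against 4.56, 4.65 and 3.24 CPM in control (log2 fold change -2.79, SE 0.36). Slc2a10 was 8.32, 6.16 and 9.06 CPM in p63KO, against 2.42, 1.74 and 2.83 CPM in control (log2 fold change 1.75, SE 0.25). For each of these 3 transporters the groups did not overlap.

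In lactate and pyruvate handling, Slc16a7, a monocarboxylate carrier, was 3.13, 3.95 and 3.49 CPM in p63KO, against 17.1, 14.97 and 10.8 CPM in control (log2 fold change -2.02, SE 0.21). Pdk4, the starvation-induced kinase of pyruvate dehydrogenase, was 0.00, 0.21 and 0.07 CPM in p63KO, against 2.63, 2.61 and 2.65 CPM in control (log2 fold change -4.76, SE 0.57). These p63KO levels are 0, 3 and 1 counts, against 49, 51 and 45 in control, so the size of this change is uncertain. Bsg, the chaperone of the lactate carriers, was 417.8, 410.4 and 429.0 CPM in p63KO, against 340.1, 364.3 and 353.2 CPM in control (log2 fold change 0.25, SE 0.06, edgeR adjusted p = 0.0096). Of 7 tested genes of the pentose phosphate pathway outside the list, 1 fell and the other 6 did not pass, with a median log2 fold change of 0.0046. The one that fell was H6pd, the enzyme of the endoplasmic reticulum that does the work of G6pdx and of the next step. It was 22.5, 22.3 and 26.2 CPM in p63KO, against 37.9, 36.5 and 40.6 CPM in control (log2 fold change -0.70, SE 0.10, edgeR adjusted p = 0.00059).

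**Figure D5:**
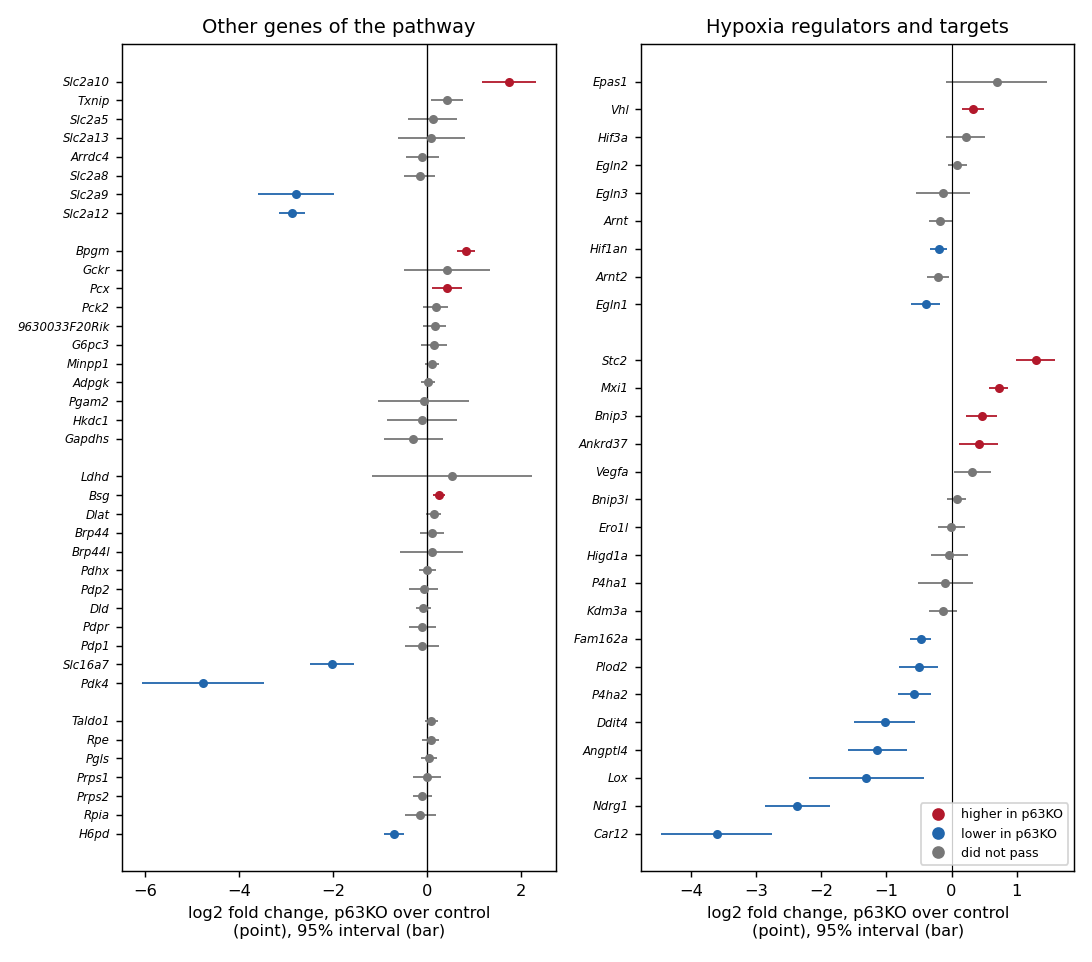
Log2 fold change of p63KO over control with its 95% interval (x axis) for the tested genes of the pathway outside the list (left) and for hypoxia regulators and targets (right). Slc2a10 (1.75) and Pdk4 (-4.76) mark the ends of the left panel, and Stc2 (1.29) and Car12 (-3.61) those of the right panel. Pdk4 had 0, 3 and 1 counts in p63KO.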

How the data were processed

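RNA from isolated esophageal epithelium was sequenced in 3 p63KO and 3 control libraries. The authors deposited raw, unscaled counts for each gene symbol. The tools bcl2fastq 1.8.4, TopHat2 2.1.0 and DESeq2 and the build mm9 are named per the submitters' processing notes. The counter, its annotation and its strand setting are not stated by these sources. The labels name single-end and paired-end reads of 100 bases together. Columns were tied to samples by names in the descriptions.

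Genes were tested with edgeR 4.0.16 under R 4.3.3, using filterByExpr (minimum count 10, minimum total 15), TMM scaling, a quasi-likelihood fit on group alone and Benjamini-Hochberg adjustment over 13849 genes. An adjusted p under 0.05 was called. The script was tested on simulated data. The standard error is the size of the log2 fold change divided by the square root of F, and intervals are 95%. Replicate libraries all differed by more than sampling noise (chi-square per degree of freedom 7.87 to 16.1).

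Exon lengths and transcripts came from GENCODE vM21, which is not the authors' annotation, so levels per kilobase are approximate. Windows of 100 bases every 10 bases were aligned to all transcripts with bwa 0.7.19, counting full-length matches to another gene with at most 2 mismatches. Promoter windows are from RefSeq (GRCm38.p6). No coordinates of the counts were used.

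Alternatives were other scalings, DESeq2 1.42.0, limma-voom (limma 3.58.1), other filters, the replicate number as a block, and each library left out. A few genes of sugar metabolism outside the 36 are not reported here and enter no list count. The members and lists were chosen with earlier results of these data known. Values per library were printed for called members, the 5 most abundant, those with an unadjusted p under 0.05, Slc2a3 and Hif1a; some further members and genes, named to show spread or shared sequence, were chosen after their values were seen.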

Additional observations from a re-analysis of the deposited data

How the results depend on the processing

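Of 455 refits of single members, 422 kept their side of the threshold and their direction if called, 27 lost a call and 6 gained one. All 10 higher members were called under each other scaling, test and filter tried, 11 with Aldoc in DESeq2, and the number of higher members was 5 to 9 with 1 library left out. The 2 lower members became 1 with limma-voom, 3 with a filter of 1 CPM in 3 libraries, and 0 to 2 with 1 library left out. The filter and the fit without control replicate 3 added Pdk1, and the fit without control replicate 1 added Aldoc. With the replicate block, 11 members were higher and 3 lower, and over all genes 2397 were higher and 2381 lower, against 2113 and 1985 without it. The block added Aldoc and Pdk1 among the members. Deviations of same-numbered libraries correlated at 0.17, 0.26 and 0.03, against -0.23 to 0.06 for other pairs, and 5 of 6 libraries correlated best with their own number. That is a hint of pairing from the data. The labels do not say what a number marks and not every pair passed 0.1, so the libraries were not treated as paired. With upper-quartile factors 2269 genes were higher and 1804 lower.

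The difference in the Eno3 share of the enolases, in percentage points, was -1.55 as listed, between -4 and 0.22 with 1 library left out, and 2.59 with the Gm5506 row added, since Eno1 has almost no counts. The Pfkl share differed by 0.07, by -0.50 to 0.52 with 1 library left out, and by -0.047 on plain counts. The Pfkm share differed by -0.41, and by -0.88 to 0.23 with 1 library left out. The Hk2 share was lower in p63KO by 11.1 to 16.1 points in every such fit.

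The Eno1 row, at 1 to 5 counts per library, is limited by its near-identical copy, with 85.0% shared windows. The read layout, strand setting and treatment of reads with several matches limit all genes with near-identical copies.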
